A study of Mus musculus with 12 samples.

Results

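Tumours treated with an antibody to B7-H3 were compared directly with tumours treated with an antibody to PD1, 3 libraries against 3 of the 12 in the series. The libraries are those titled anti-B7H3 1 to 3 and anti-PD1 1 to 3, so no measured value chose them. All 6 came from melanoma allografts that Yumm2.1 cells, an established mouse melanoma line, had formed under the skin of immunocompetent C57BL/6J mice, and each antibody was given once tumours measured 20 to 50 mm3. The other 6 libraries came from the same model with an isotype control or with both antibodies, and entered the filter on low counts and the common estimate of spread. With the 6 compared libraries alone 13391 genes were tested, in place of 16088. RNA of whole tumours was sequenced after removal of ribosomal RNA, so each value mixes tumour cells with the immune, stromal and skin cells around them. The tumours derive from 1 cell line, and the sources used here give no age, sex, number of mice, dose or time of sampling. The series asked which immune cells the tumours of each treatment held, and the direct comparison asks where the tumours of the single antibodies differ.

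B7-H3, the product of Cd276, is a surface protein of the B7 family that many tumour, stromal and myeloid cells carry and that can restrain T cells and natural killer cells through a receptor that is not settled. PD1, the product of Pdcd1, is a receptor on activated T cells that dampens their signalling when it meets its ligands, the products of Cd274 (PD-L1) and Pdcd1lg2 (PD-L2), on tumour or myeloid cells. Interferon gamma from T and natural killer cells acts through Jak kinases and the factor Irf1 to raise antigen presentation genes, guanylate-binding proteins, the chemokine Cxcl9 and PD-L1 itself. Macrophages are usually the most abundant leukocytes in such allografts, and the phagocytosis checkpoint of Cd47 and its macrophage receptor Sirpa acts on them.

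The libraries of the 2 treatments differed in more than their genes. Repeats marked the first difference, since 12 satellite-like genes took 0.145 ± 0.068% (SD, n = 3) of matched reads in anti-B7-H3 and 72 ± 2.99% in anti-PD1 libraries. Without them, 3570258 to 3918163 reads were left per anti-B7-H3 library and 2530099 to 2793362 per anti-PD1 library. Olfactory receptor (Olfr) genes, which tumours are not expected to transcribe, held 0.0559 ± 0.00516 and 5.2 ± 0.25 reads per kilobase of coding length. That is a ratio of 93, with no overlap between the groups (exact two-sided permutation p = 0.1, the smallest that 3 libraries against 3 allow). Multiplied by a gene's coding length, this rate gives the background reads expected for that gene, in all 0.0538 ± 0.00647% of the remaining reads in anti-B7-H3 and 6.98 ± 0.52% in anti-PD1 libraries. One gene, Olfr93, gave 24.8% of the olfactory receptor reads in anti-PD1, and the rates without it, an alternative chosen after seeing the data, were 0.0491 ± 0.00601 and 3.91 ± 0.229. A gene is called well above background where its reads over the 6 libraries were at least 3 times that expectation. Within a treatment the libraries were close to each other (median chi-square per gene 0.547 to 0.559 in anti-B7-H3 and 0.623 to 0.633 in anti-PD1, where counting noise alone gives 0.455), against 5.84 to 6.76 between treatments. Whether each library is a separate mouse is not stated, so the p-values measure the spread between libraries, which may be technical.

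Levels below are CPM, read counts outside the satellite-like genes scaled to a common library total with the trimmed mean of M-values (TMM), in the order of replicates 1, 2 and 3. A fold change is anti-B7-H3 over anti-PD1 on the log2 scale with its standard error, positive where anti-B7-H3 is higher, and a single number after a pair of levels is that fold change. Adjusted p-values are those of the quasi-likelihood F test of edgeR with Benjamini-Hochberg adjustment over all genes tested. Of 16088 genes tested, 4414 (27.4%) were higher and 6688 (41.6%) were lower in anti-B7-H3 at an adjusted p under 0.05, in all 69.0% of genes. Counts of list members called higher or lower, here and below, stand against these shares. At a change of at least 2-fold the counts were 1619 (10.1%) and 4622 (28.7%). Of the 6688 genes on the lower side, 3274 were well above background and 3414 were not. Of the 3864 genes that were not well above background, 3414 were called lower and 13 higher. Of the 12224 genes that passed the background threshold, 4401 (36.0%) were called higher and 3274 (26.8%) lower, and at 2-fold 1609 (13.2%) and 1245 (10.2%). The threshold sums the reads of both treatments. Genes at background in anti-PD1 could therefore pass through their anti-B7-H3 reads, such as C2 (278 against 18 reads, 35.6 expected in anti-PD1). These shares thus depend in part on the threshold itself. With the expected background subtracted from every gene before the fit, 3240 genes (20.1%) kept the higher call and 3014 (18.7%) the lower, and the share of higher genes among those called was 49.9% in place of 39.8%. Subtraction also moved genes of at least 100 CPM by a median of -0.23, from 0.12 to -0.096 over 1680 genes, so changes of that size depend on the scale. For Gapdh, a glycolysis enzyme, 3225 ± 34.2 against 3125 ± 119 CPM gave 0.045 (adjusted p = 0.451), and -0.23 after subtraction (adjusted p = 5.03e-06). The groups of 3 did not overlap for 11502 genes (71.5%), so the absence of overlap alone singles out no gene.

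**Figure D1:**
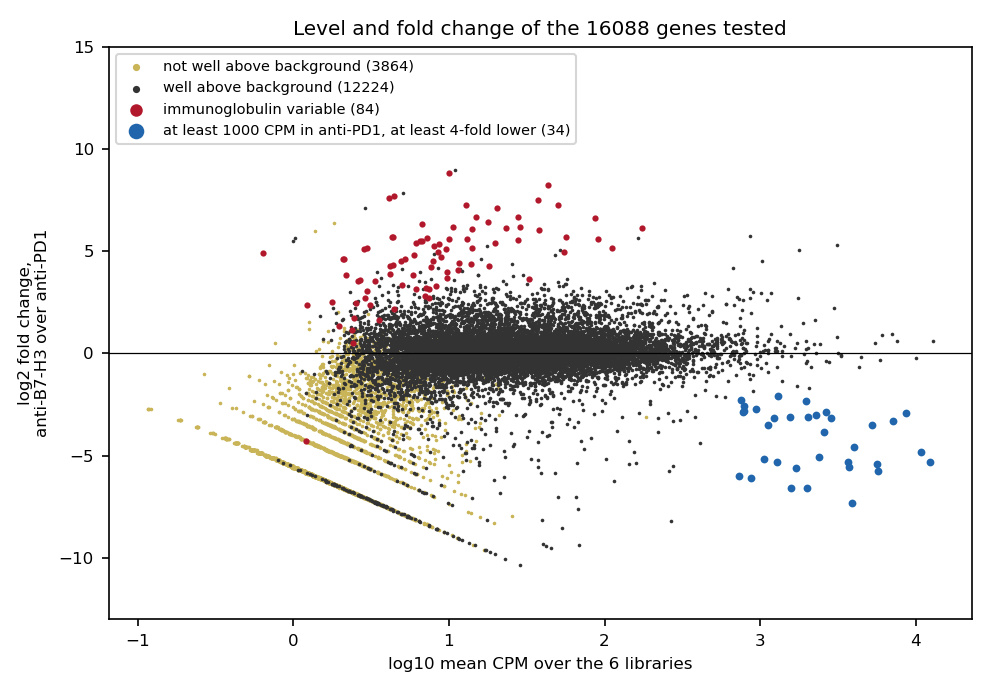
Mean level of each gene over the 6 libraries (CPM, log10 axis) against its log2 fold change, anti-B7-H3 over anti-PD1, for 16083 of the 16088 genes tested (5 had no read in these libraries). Genes not well above background (yellow) lie almost all below 0, the 84 immunoglobulin variable genes (red) lie above 0 with few exceptions, and the 34 blue genes are those of at least 1000 CPM in anti-PD1 that were at least 4-fold lower in anti-B7-H3.

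The gene of the receptor that one antibody binds, Pdcd1 (chr1:94038305-94052553 in GRCm38), was measured at 4.1, 4.52 and 3.65 CPM in anti-B7-H3 and at 2.09, 0.365 and 0.778 CPM in anti-PD1 libraries. The 3 anti-B7-H3 libraries were all above the 3 anti-PD1 libraries (log2 fold change 1.86 ± 0.528, adjusted p = 0.0014), but on 51 and 9 reads, and the anti-PD1 reads were no more than the 13.5 expected as background. Both ligands of the receptor were higher in anti-B7-H3. Cd274, the gene of PD-L1 (chr19:29367455-29388095), stood at 40.8, 40.2 and 40.6 against 9.06, 6.21 and 12.4 CPM (log2 fold change 2.14 ± 0.171, adjusted p = 9.29e-19), a 4.4-fold difference with the anti-B7-H3 libraries almost level with each other. Pdcd1lg2, the gene of PD-L2, stood at 70.6, 68.3 and 74.2 against 10.1, 7.67 and 5.83 CPM (log2 fold change 3.15 ± 0.152, adjusted p = 6.82e-31), the largest difference among the B7 family genes tested.

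The target of the other antibody differed little. Cd276 (chr9:58524298-58555437) was measured at 43.3, 45.7 and 47.9 CPM in anti-B7-H3 and 64.8, 53.3 and 47.4 CPM in anti-PD1 libraries. The lowest anti-PD1 library lay within the anti-B7-H3 range, so the groups overlap, and the difference passed the test by a small margin (log2 fold change -0.28 ± 0.113, adjusted p = 0.0236). The difference was larger with background subtracted (-0.51, adjusted p = 0.00141, or -0.47, adjusted p = 0.00204, at the rate without Olfr93). It failed the test with an offset for each gene's deposited effective length (-0.013, adjusted p = 0.966), and when anti-B7-H3 replicate 1 was left out (-0.23, adjusted p = 0.107), or anti-B7-H3 replicate 2 (-0.27, adjusted p = 0.0629) or anti-PD1 replicate 1 (-0.13, adjusted p = 0.37). Both arms of the phagocytosis checkpoint were higher in anti-B7-H3. Cd47, which marks cells as not to be engulfed, was at 164, 164 and 179.8 against 70.05, 73.1 and 73.9 CPM (log2 fold change 1.23 ± 0.0764, adjusted p = 2.31e-24). Its receptor Sirpa, found mainly on myeloid cells, was at 286, 287 and 291 against 51.2, 55.5 and 55.2 CPM (log2 fold change 2.42 ± 0.0725, adjusted p = 4.6e-44), 5.34-fold higher with a gap many times the spread in either group. Of 10 genes tested in the list of B7 family ligands and the Cd47 axis, 9 were higher and Cd276 alone was lower, where 27.4% and 41.6% of all genes were. Vsir, the gene of the checkpoint VISTA, was at 115 ± 0.818 against 22.3 ± 5.65 CPM (2.35). The costimulatory ligand genes Cd80 and Cd86 were at 12.1 ± 0.932 against 4.76 ± 1.61 CPM (1.34) and 15.4 ± 1.73 against 7.45 ± 1.16 CPM (1.04). Icosl, the gene of the ligand of Icos, was at 8.35 ± 1.43 against 3.53 ± 0.987 CPM (1.23).

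Checkpoint and costimulatory receptors of T cells were higher or not distinguishable, in 8 and 2 of the 10 tested, with 5 higher under an effective-length offset. Tnfrsf4, the gene of OX40, was at 12.1 ± 1.57 against 2.57 ± 0.327 CPM (log2 fold change 2.21 ± 0.309, adjusted p = 2.58e-09). Tigit, an inhibitory receptor, was at 5.83 ± 1.12 against 1.35 ± 0.764 CPM (log2 fold change 2.08 ± 0.458, adjusted p = 5.01e-05). Ctla4 (5.57 ± 1.17 against 2.21 ± 0.121 CPM, 1.33), Lag3 (22.6 ± 1.5 against 12.2 ± 1.79 CPM, 0.88) and Havcr2, the gene of TIM-3 (11.3 ± 1.78 against 6.13 ± 3.87 CPM, 0.91), were higher by smaller amounts. Their reads are few, and the calls of Ctla4 and Havcr2 were lost with an effective-length offset (adjusted p = 0.177 and 0.179). That of Havcr2 was also lost without anti-PD1 replicate 1 (0.6, adjusted p = 0.0598). In these whole tumours fewer cells of a type and less RNA per cell cannot be told apart, here and in every list below. Satellite-like reads and the background rate also differ with treatment. Their part in these differences cannot be told apart either and was not tested.

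**Figure D2:**
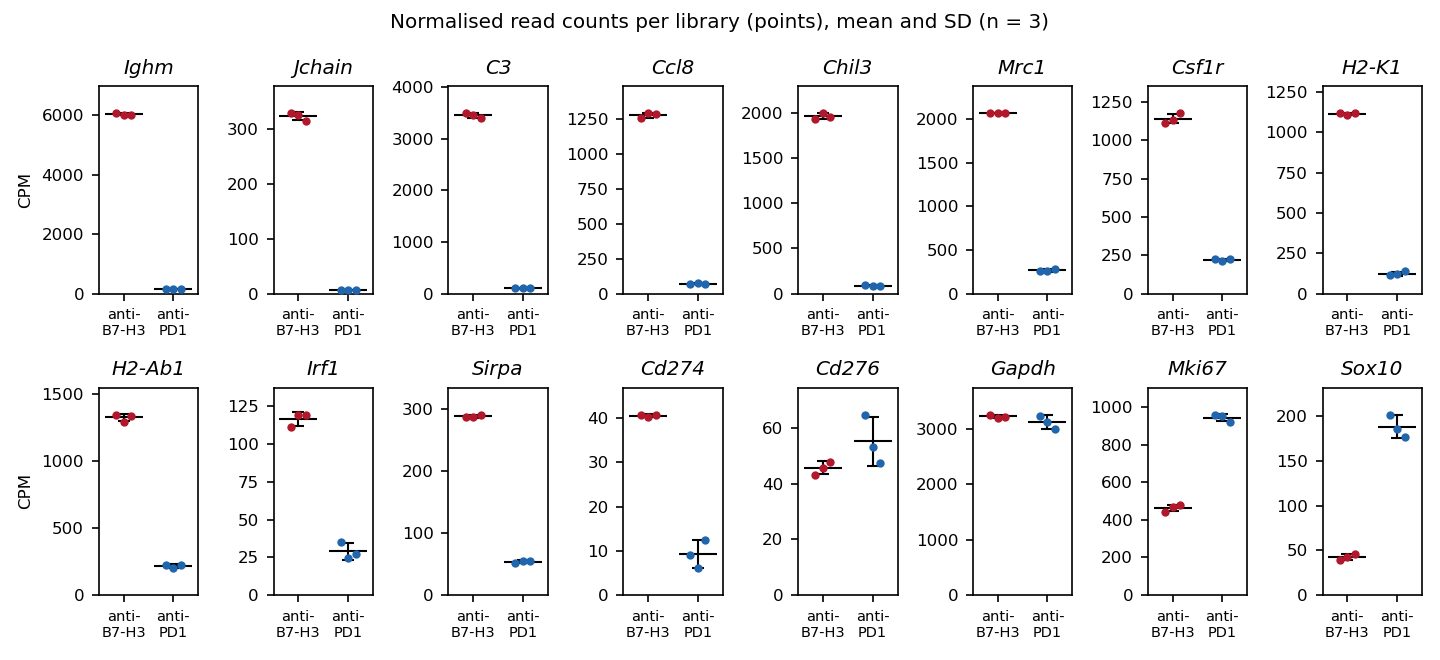
Normalised read counts (CPM, linear axis from 0) of 16 genes in each anti-B7-H3 (red) and anti-PD1 (blue) library, with the mean and SD of 3 libraries in black. The groups are far apart for 14 genes, overlap for Cd276 and lie close together for Gapdh, and Mki67 and Sox10 are the 2 genes of the 14 that are higher in anti-PD1.

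Immunoglobulin genes were among the largest differences in the direction of anti-B7-H3. Ighm, the constant gene of the IgM heavy chain, was at 6073, 6015 and 6024 CPM in anti-B7-H3 and 161, 152 and 140.4 CPM in anti-PD1 libraries, 39.95-fold apart (log2 fold change 5.32 ± 0.0652, adjusted p = 3.64e-70). Igkc, the kappa light chain constant gene, was at 1675, 1731 and 1676 against 36.2, 31.4 and 25.7 CPM (log2 fold change 5.76 ± 0.0738, adjusted p = 3.17e-69). Jchain, which joins IgM and IgA into polymers and marks plasma cells, was at 329, 325 and 315 against 5.92, 6.21 and 6.998 CPM (log2 fold change 5.66 ± 0.113, adjusted p = 7.51e-56). The replicates of a treatment differed by a few percent for these genes in anti-B7-H3, against gaps of 39.95-fold and more. Of the 10 immunoglobulin constant genes tested, 9 were higher and none lower, and the remaining gene, Ighe, was not well above background. Their summed level was 8038 ± 22.8 CPM in anti-B7-H3 and 204 ± 17.2 CPM in anti-PD1 libraries. IgG and IgA classes were smaller parts of it, with Ighg1 at 93.1 ± 4.87 against 3.33 ± 0.777 CPM and Igha at 12.1 ± 2.1 against 2.06 ± 0.878 CPM.

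Variable genes followed the constant genes. Of 84 immunoglobulin variable genes tested, 81 were higher in anti-B7-H3, each by at least 2-fold, and 1 was lower, with a median log2 fold change of 4.77, or 4.63 with the 4 genes of 0 anti-PD1 reads at their bound, against -0.16 over all genes. Their summed level was 2646 ± 23.7 CPM in anti-B7-H3 and 78.6 ± 4.2 CPM in anti-PD1 libraries. Together they held 33027 reads in the 3 anti-B7-H3 libraries, where 4.99 were expected as background, and 642 reads in the 3 anti-PD1 libraries, where 464 were expected, so most anti-PD1 reads of these genes were no more than background. The 8 genes with the largest fold changes in this direction under the naming rule were all variable genes of heavy or kappa chains (Ighv1-39, Igkv12-41, Ighv1-53, Igkv12-44, Ighv1-19, Igkv10-96, Ighv1-62-2 and Igkv1-110). Igkv12-41 had 1079 reads against 2, a ratio of levels of 354 with a 95% counting interval of 97.6 to 2923, and was at 83.2, 85.9 and 90.5 CPM in the anti-B7-H3 libraries. Ighv1-39 had 248 reads against 0 and was at least 54.2-fold higher, taking 3 reads over the group as the floor. Variable genes resemble each other, and the sources used here do not say how reads shared by several of them were assigned, so single genes are less certain than their sum.

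Markers of antibody-secreting cells and of B cells did not move as one. Of 8 plasma cell genes, 7 were higher (median 1.87), among them Mzb1, a chaperone of immunoglobulin assembly (23 ± 2.89 against 1.31 ± 1.04 CPM, log2 fold change 4.06 ± 0.318, adjusted p = 3.69e-19), and Tent5c (20.9 ± 1.13 against 5.08 ± 2.75 CPM, 2.02). The B cell list gave 4 higher and 3 lower genes of 10, and its 299 anti-PD1 reads compare with 266 expected as background, or 200.1 at the rate without Olfr93. Cd79b, a part of the B cell receptor, had 80 reads against 5 (log2 fold change 3.3 ± 0.571, adjusted p = 5.49e-07). Cd22, an inhibitory receptor of B cells, had 419 against 49 (log2 fold change 2.48 ± 0.201, adjusted p = 1.74e-18). The surface genes Ms4a1, the gene of CD20 (37 against 22 reads, 13.7 expected as background in anti-PD1), and Cd79a (50 against 23, 10.3 expected) did not pass the test (adjusted p = 0.808 and 0.33). None of the 3 lower genes of the B cell list kept its call with background subtracted, and 1 did at the rate without Olfr93.

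Macrophage genes were higher in anti-B7-H3 without exception among those tested. All 18 macrophage markers passed the test in that direction, where 27.4% of all genes did, with a median of 2.42 and a range of 0.75 to 2.96, and 18 were called higher in each of the 18 other settings. Their summed level was 11919 to 12116 CPM in the anti-B7-H3 and 1995 to 2099 CPM in the anti-PD1 libraries. Csf1r, the receptor on which macrophages depend for survival, was at 1116, 1132 and 1178 against 224, 214 and 224 CPM (log2 fold change 2.37 ± 0.0539, adjusted p = 3.4e-52). Mrc1, the mannose receptor, was at 2069, 2065 and 2067 against 256, 257 and 282 CPM (log2 fold change 2.96 ± 0.0567, adjusted p = 4.32e-57). For both genes the 3 libraries of a treatment lay close together and far from those of the other. Adgre1, the gene of F4/80 (328 ± 13.7 against 54.3 ± 2.35 CPM, 2.59) and the lysosomal protein gene Cd68 (175 ± 7.32 against 28.8 ± 7.28 CPM, 2.59) differed by similar amounts. So did Apoe, of lipid transport (3029 ± 89.7 against 467 ± 14.6 CPM, 2.7), and Lyz2, the myeloid lysozyme (779 ± 6.67 against 101 ± 9.81 CPM, 2.94). Mertk, a receptor for dying cells, differed by the least (93.6 ± 7.66 against 55.8 ± 2.51 CPM, 0.75).

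Genes tied to alternative activation, the state that interleukin 4 induces in macrophages, were also higher, 15 of 16 with a median of 2.55, 13 of them also with background subtracted. Chil3, a secreted chitinase-like protein, was at 1939, 2000.0 and 1961 against 91.3, 82.6 and 84 CPM, 22.8-fold apart (log2 fold change 4.51 ± 0.0609, adjusted p = 1.06e-67). Arg1, which breaks down arginine, was at 1518, 1559.6 and 1542 against 166, 167 and 177 CPM (log2 fold change 3.18 ± 0.0545, adjusted p = 2.25e-60). The lectin genes Clec10a (75.2 ± 0.834 against 6.98 ± 0.406 CPM, 3.42) and Mgl2 (566 ± 16 against 81.8 ± 2.75 CPM, 2.79) moved the same way. So did the secreted factor Retnla (439.7 ± 23.7 against 51.4 ± 7.995 CPM, 3.09) and the scavenger receptor Cd163 (431 ± 7.34 against 147 ± 8.63 CPM, 1.55). Fn1, which the list holds and which fibroblasts and tumour cells also make, was the most abundant member in both treatments (15592 ± 87.9 against 10110.0 ± 176 CPM, 0.63). Of 9 monocyte genes, 8 were higher, with Ly6c2, a marker of inflammatory monocytes (19.9 ± 2.49 against 1.58 ± 1.17 CPM, 3.61), among them. Plac8 (19.8 ± 2.08 against 2.19 ± 1.03 CPM, 3.14) and the chemokine receptor Ccr2 (72.5 ± 1.54 against 20.3 ± 1.27 CPM, 1.83) were others. Nr4a1, which patrolling monocytes need and which is also an immediate early gene, was lower (21.2 ± 2.001 against 54.2 ± 6.9 CPM, -1.35).

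The effector genes of these cells were higher as well. All 7 Fc receptor genes for IgG tested were higher (median 1.92). Fcgr4, an activating receptor, stood at 44, 40.4 and 39.4 against 3.48, 3.29 and 3.89 CPM (log2 fold change 3.53 ± 0.208, adjusted p = 1.04e-25). Fcgr3, a further activating receptor, was at 315 ± 15.6 against 52 ± 3.3 CPM (2.6) and the inhibitory Fcgr2b at 534 ± 9.75 against 104 ± 1.83 CPM (2.35). Lysosomal cathepsins, the proteases that digest engulfed material, were higher in 12 of 13 (median 1.7), led by Ctss, which trims the class II invariant chain (1802 ± 26.3 against 234 ± 11.5 CPM, 2.94). Other abundant members were Ctsb (1391 ± 29.2 against 353 ± 19.1 CPM, 1.98) and Ctsd (1069 ± 8.91 against 421 ± 14.8 CPM, 1.34). Toll-like receptors were higher in 12 of 15 (median 1.61), with the endosomal sensors Tlr8 (69.1 ± 3.79 against 12.5 ± 1.73 CPM, 2.46) and Tlr13 (45.4 ± 2.52 against 11.1 ± 3.04 CPM, 2.04). Tlr4, the receptor for bacterial lipopolysaccharide, was at 117 ± 11.2 against 38.3 ± 2.72 CPM (1.61).

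Complement, the plasma protein cascade that tags and lyses targets, was higher in 16 of 19 genes, with a median of 2.44. C3, on which all pathways converge, was at 3495, 3454 and 3406 against 97.9, 107 and 99.9 CPM, 34-fold apart (log2 fold change 5.09 ± 0.0637, adjusted p = 8.93e-70). No anti-PD1 library came near an anti-B7-H3 library for this gene. C1qa, a part of the first component made mainly by macrophages, was at 1260.2 ± 9.17 against 201 ± 5.69 CPM (2.65), and the alternative pathway activator Cfp at 311 ± 6.85 against 31.6 ± 1.91 CPM (3.3). C2 had 278 reads against 18, the latter below the 35.6 expected as background. Cd46, a membrane regulator, was the only gene of the list called lower (1.59 ± 0.413 against 6.09 ± 0.791 CPM, log2 fold change -1.9 ± 0.421, adjusted p = 5.45e-05).

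Other myeloid lists were less uniform. Of 12 dendritic cell genes, 10 were higher (median 1.02), with Itgax, the gene of CD11c (383 ± 10.8 against 105 ± 11 CPM, 1.87), among them. The lectin gene Cd209a (19.1 ± 3.27 against 3.18 ± 1.05 CPM, 2.57) and Batf3, a factor of cross-presenting cells (10.2 ± 0.619 against 1.82 ± 0.54 CPM, 2.45), were others. Clec9a, the most specific marker of cross-presenting dendritic cells in the list, was lower (32 against 48 reads, 12.4 expected as background, log2 fold change -1.18 ± 0.38, adjusted p = 0.00482). That call was lost with background subtracted (-1.03, adjusted p = 0.102) and without anti-PD1 replicate 1 (-0.96, adjusted p = 0.0515). Xcr1, of the same cells, had 10 and 15 reads, too few to be tested. Among 7 neutrophil genes tested, 3 were higher and 3 lower, and none of the lower ones kept its call with background subtracted. Retnlg (62.3 ± 5.73 against 9.6 ± 2.33 CPM, 2.69) and Csf3r (32.5 ± 2.54 against 17.6 ± 3.28 CPM, 0.89) were higher. The defining granule genes S100a8 (10 against 7 reads) and S100a9 (10 against 15) and the surface gene Ly6g (1 against 4) had too few reads to be tested. Mast cell genes went the other way, 6 of 8 lower, 4 of them also with background subtracted, such as the proteases Tpsb2 (2.98 ± 2.17 against 17.6 ± 5.77 CPM, -2.53) and Cpa3 (3.17 ± 0.921 against 9.84 ± 1.6 CPM, -1.6). Kit, of the same list, did not pass (0.44, adjusted p = 0.0771), but was higher with background subtracted (1.53, adjusted p = 0.000343). Gata2 was lower (2.65 ± 0.909 against 8.79 ± 0.543 CPM, -1.72), a call lost with an effective-length offset (-0.91, adjusted p = 0.441).

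**Figure D3:**
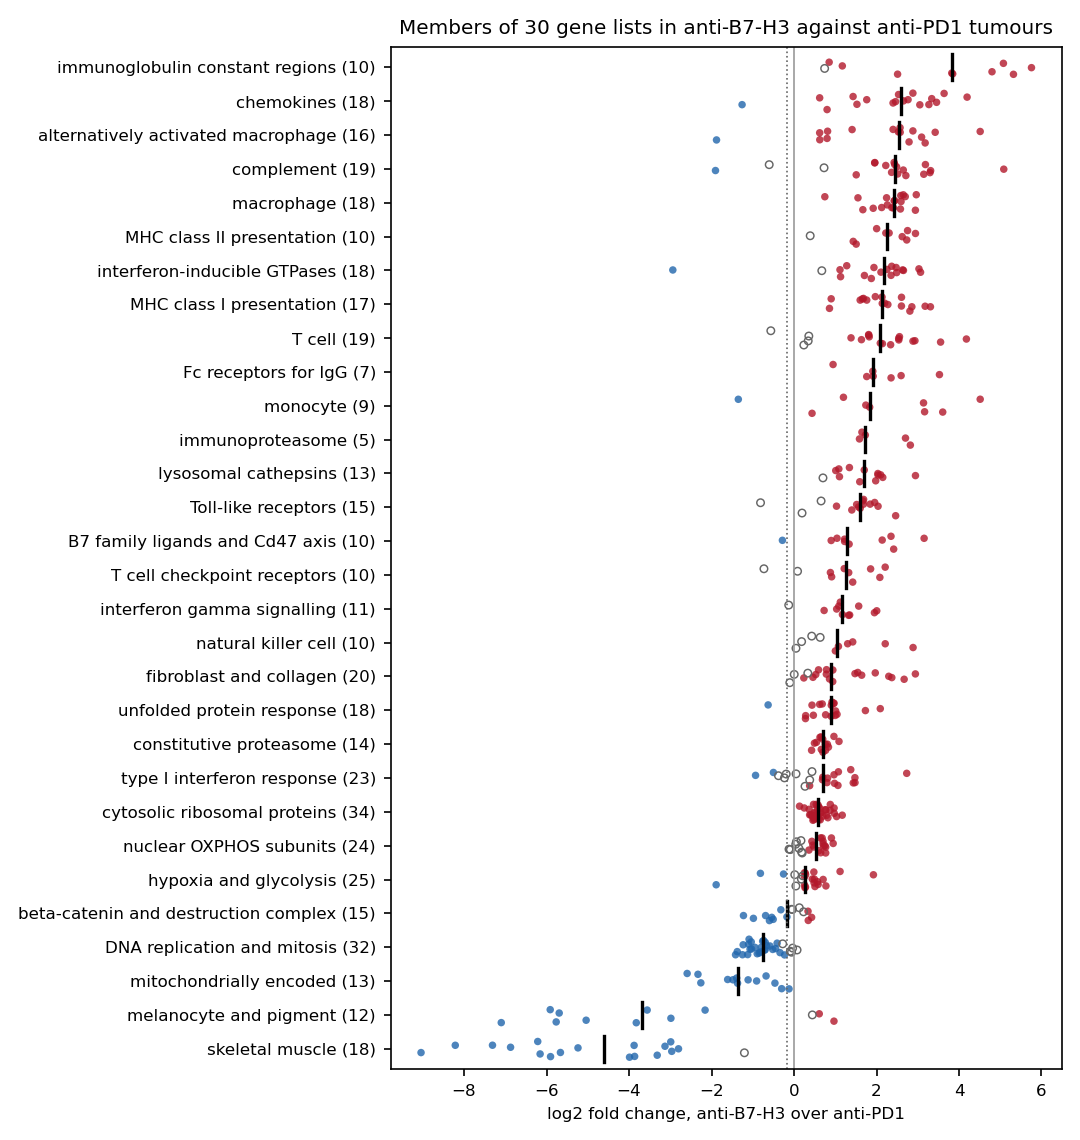
Log2 fold change, anti-B7-H3 over anti-PD1, of the members tested in 30 of the gene lists (number tested in brackets), with filled points for genes called higher (red) or lower (blue), open points for genes that did not pass, a black bar at the median of the list, a dotted line at the median of all genes (-0.16) and a grey line at 0. The medians of the immune lists drawn stand to the right of both lines, and mitosis, mitochondrially encoded, pigment and skeletal muscle genes to the left. Immune lists not drawn include mast cell (median -1.76), neutrophil (0.56) and B cell genes (0.32).

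T cell genes were higher in 15 of 19 tested and lower in none, with a median of 2.09. The list held 2386 reads in the 3 anti-B7-H3 libraries, where 3.23 were expected as background, and 435 reads, where 300.2 were expected as background, in the 3 anti-PD1 libraries. The anti-PD1 level of T cell genes was therefore 1.45 times background, or 1.93 times at the rate without Olfr93. Cd3e, which couples the T cell receptor to its signal, was at 11.6, 11 and 9.003 against 0.348, 2.19 and 1.56 CPM (log2 fold change 2.93 ± 0.394, adjusted p = 8.11e-10). Cd3g, of the same complex, was at 11.4, 12.8 and 11.7 against 0.697, 1.83 and 0.389 CPM (log2 fold change 3.55 ± 0.392, adjusted p = 9.83e-13). Both chains were far lower in every anti-PD1 library, at 11 and 8 reads where 8.89 and 8.56 were expected. Trbc2, a constant gene of the beta chain, had 203 reads against 7, all of the latter in anti-PD1 replicate 2, so its log2 fold change of 4.18 became 8.56 without that library, a fitted value against 0 reads that is no bound. Cd4, which marks helper T cells and is also found on some macrophages, had 185 reads against 34 (log2 fold change 1.82 ± 0.26, adjusted p = 4.66e-09). Cd8a, which marks killer T cells, had 82 against 7 (log2 fold change 2.88 ± 0.488, adjusted p = 3.39e-07). Cd8b1, the partner of Cd8a, did not pass (43 against 22 reads, 10.01 expected, adjusted p = 0.488). Neither did Foxp3, the factor of regulatory T cells (62 against 32 reads, 20.1 expected, adjusted p = 0.401).

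Cytotoxic genes differed strongly in part. Gzma, a granule protease of killer cells, was at 37.8, 34.7 and 30.4 against 1.05, 0.731 and 0.778 CPM, on 429 and 7 reads (log2 fold change 5.26 ± 0.314, adjusted p = 2.71e-25). Gzmb was at 15, 16.1 and 20.4 against 1.39, 1.46 and 2.72 CPM (log2 fold change 3.2 ± 0.32, adjusted p = 2.26e-14). Nkg7, of the granule membrane, was at 10.3, 10.04 and 9.73 against 1.39, 0.365 and 1.17 CPM (log2 fold change 3.3 ± 0.407, adjusted p = 5.18e-11). All 3 had anti-PD1 reads close to the background expected, and no library of one treatment came near those of the other. Prf1, which forms the pores through which granzymes enter, did not pass (13.3 ± 1.81 against 12.8 ± 4.07 CPM, log2 fold change 0.048 ± 0.203, adjusted p = 0.843). In the cytotoxic list 6 of 8 were higher, and in the natural killer cell list 6 of 10 (4 to 7 without 1 replicate). Il2rb, the shared beta chain of interleukin receptors on these cells, was at 60.02 ± 5.27 against 8.01 ± 2.29 CPM (2.89), and Klrk1, the gene of NKG2D, at 7.53 ± 1.13 against 1.6 ± 1.52 CPM (2.21). Ncr1, the most specific natural killer cell marker tested, was higher on 74 against 24 reads (log2 fold change 1.0 ± 0.387, adjusted p = 0.0181). The call was lost by the Wald test of DESeq2 (adjusted p = 0.0517), with anti-B7-H3 replicate 2 left out (0.95, adjusted p = 0.0535) or with anti-PD1 replicate 1 left out (0.81, adjusted p = 0.088). Ifng itself had 18 reads against 2, where 7.3 were expected as background in anti-PD1, and was too low to be tested.

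**Figure D4:**
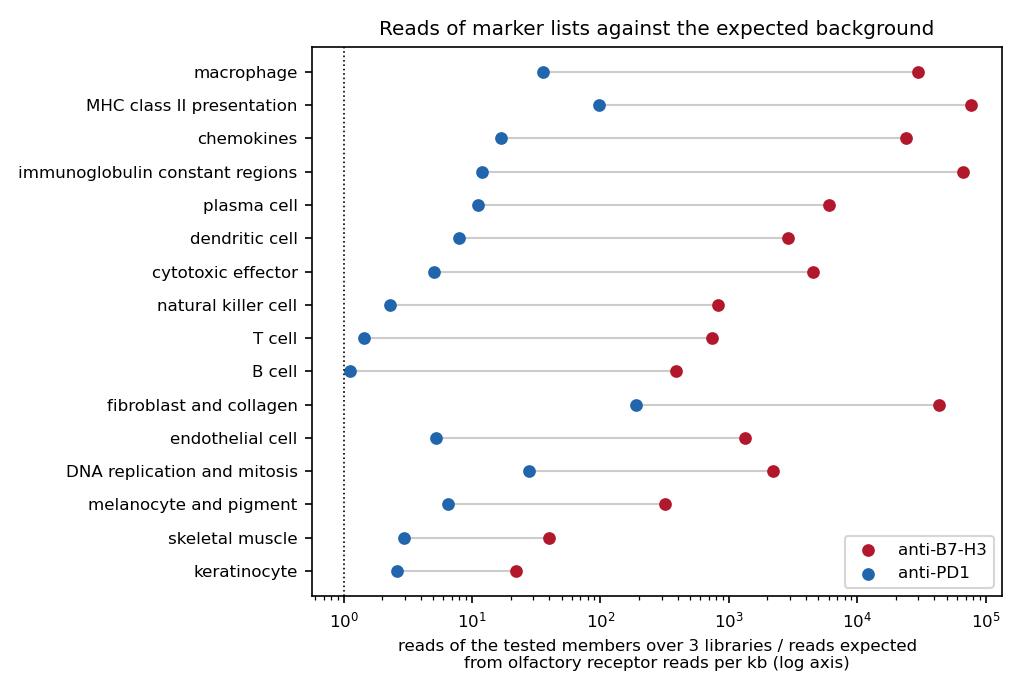
Reads of the tested members of 16 lists, summed over the 3 libraries of a treatment and divided by the background reads expected from the olfactory receptor rate (log axis, dotted line at 1), with anti-B7-H3 in red and anti-PD1 in blue. T and B cell genes lie at 1.45 and 1.12 times background in anti-PD1 (1.93 and 1.49 at the rate without Olfr93), while macrophage (36) and fibroblast genes (189) stand well above it in both treatments.

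Genes downstream of interferon gamma were higher in anti-B7-H3. Irf1, a transcription factor that interferon induces, was at 111, 119.5 and 119 against 34.8, 24.5 and 27.2 CPM (log2 fold change 2.01 ± 0.103, adjusted p = 3.57e-29). Irf8, which works with Irf1 in myeloid cells, was at 91.7 ± 5.54 against 30.9 ± 2.8 CPM (1.57). The groups did not overlap for either factor, and the treatments were 2.97- and 4.02-fold apart for Irf8 and Irf1. Both receptor chains, Ifngr1 (149 ± 5.07 against 58.5 ± 3.04 CPM, 1.35) and Ifngr2 (94.9 ± 0.676 against 37.7 ± 4.3 CPM, 1.32), were higher by less. So were the kinases Jak1 (418 ± 7.13 against 192 ± 9.37 CPM, 1.12) and Jak2 (227 ± 10.6 against 137 ± 5.69 CPM, 0.73). Ptpn2, a phosphatase that turns the pathway off, did not pass (37.6 ± 2.21 against 41.1 ± 1.14 CPM, adjusted p = 0.329), but was lower with background subtracted (-0.32, adjusted p = 0.0375). Of 11 genes of the pathway tested, 10 were higher (median 1.17).

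Interferon-inducible GTPases, which attack the vacuoles of intracellular microbes, were higher in 16 of 18 (median 2.18). Gbp2b was at 43.1, 43.7 and 46 against 4.88, 4.75 and 6.61 CPM (log2 fold change 3.03 ± 0.195, adjusted p = 1.34e-23). Gbp2 was at 259, 262 and 260.1 against 46.7, 46.8 and 45.5 CPM (log2 fold change 2.49 ± 0.0745, adjusted p = 3.85e-44), and Iigp1, of the immunity-related GTPases, at 118, 119.5 and 116 against 19.5, 15 and 22.6 CPM (log2 fold change 2.63 ± 0.114, adjusted p = 1.23e-33). Each stood several-fold higher in every anti-B7-H3 library. Gbp5, a guanylate-binding protein that takes part in inflammasome activation, was the single member called lower, at 58.8, 59.3 and 59.4 against 409, 488 and 464 CPM (log2 fold change -2.94 ± 0.0693, adjusted p = 5.6e-47). Its 3703 anti-PD1 reads were far above the 33.9 expected from the olfactory receptor rate. In the isotype control libraries, which held the most satellite-like reads, Gbp5 was at 1611, 1821 and 1579 CPM, and in the combination libraries at 99.2, 92.1 and 102 CPM. This gene thus moved with the share of satellite-like reads over the 4 groups, and the part of those reads in its difference was not tested. GTPases of one family are near-identical in places, and single members are less certain than their group.

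The promoter windows of Gbp2b, Psmb8 and Irf1, which were higher, and of Gbp5, which was lower, are shown because interferon acts on such genes through 2 short elements. These are the interferon-stimulated response element (core GAAA, any 2 bases, GAAA) and the gamma-activated site (core TTCNNNGAA), searched on both strands from 250 bases before to 50 bases after the start of transcription in RefSeq windows (GRCm38.p6). The first core was found in 10 of 11 GTPase genes with a window, against 3.99% of 27025 genes, in 4 of 14 class I genes and in 1 of 10 class II genes. It was found in 1 of 10 interferon gamma pathway genes and 11 of 19 type I response genes. The second was found in 6 of 11 GTPase genes and 4 of 10 interferon gamma pathway genes, against 9.55% of all genes. It was found in 1 of 14 class I, 1 of 10 class II and 3 of 19 type I response genes. Of the 5 inducible proteasome genes, 1 held each core. A second window of Irf1, not printed, holds neither. The windows run 5′ to 3′ on the plus strand, with matches in capitals: Gbp2b (chr3:142594597-142594896, first core, read on the opposite strand), Psmb8 (chr17:34197945-34198244, second core), Irf1 (chr11:53769764-53770063, second core) and Gbp5 (chr3:142496684-142496983, first core on the opposite strand and 2 matches of the second).
Gbp2b: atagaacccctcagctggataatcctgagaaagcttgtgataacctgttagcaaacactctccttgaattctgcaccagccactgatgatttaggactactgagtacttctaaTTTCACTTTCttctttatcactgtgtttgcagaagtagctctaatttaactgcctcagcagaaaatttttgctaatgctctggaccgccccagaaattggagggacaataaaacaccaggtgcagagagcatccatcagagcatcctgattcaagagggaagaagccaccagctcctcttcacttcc
Psmb8: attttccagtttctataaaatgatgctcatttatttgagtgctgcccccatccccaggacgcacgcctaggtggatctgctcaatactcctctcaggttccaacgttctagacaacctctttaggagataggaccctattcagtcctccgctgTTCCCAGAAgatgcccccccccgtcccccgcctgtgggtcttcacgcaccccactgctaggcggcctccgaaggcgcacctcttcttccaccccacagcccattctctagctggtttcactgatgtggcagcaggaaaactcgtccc
Irf1: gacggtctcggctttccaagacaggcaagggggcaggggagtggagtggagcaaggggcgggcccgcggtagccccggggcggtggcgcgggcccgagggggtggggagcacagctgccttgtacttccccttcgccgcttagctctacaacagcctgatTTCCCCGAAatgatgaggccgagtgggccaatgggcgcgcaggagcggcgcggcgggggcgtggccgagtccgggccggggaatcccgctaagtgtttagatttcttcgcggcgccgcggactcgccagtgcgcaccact
Gbp5: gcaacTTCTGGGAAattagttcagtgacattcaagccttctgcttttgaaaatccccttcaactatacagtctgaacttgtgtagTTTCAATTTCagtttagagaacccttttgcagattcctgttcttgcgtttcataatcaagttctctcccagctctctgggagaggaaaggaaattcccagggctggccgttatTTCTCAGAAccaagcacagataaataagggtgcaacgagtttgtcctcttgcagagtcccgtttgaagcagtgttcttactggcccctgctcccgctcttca

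A match in a window is a description of its letters, and Gbp5, which was lower, holds both cores, while Gbp2b, which was higher, holds the first. Class I antigen presentation, which shows peptides from inside the cell to killer T cells, was higher in all 17 genes tested (median 2.14), where 27.4% of all genes were. The groups did not overlap in any of the 17, nor in 71.5% of all genes. H2-K1, a classical heavy chain, was at 1119, 1109 and 1119 against 115, 118 and 137 CPM (log2 fold change 3.18 ± 0.0594, adjusted p = 7.72e-58). H2-D1 was at 1931, 1852 and 1918 against 323, 289 and 325 CPM (log2 fold change 2.61 ± 0.0561, adjusted p = 1.05e-53). B2m, the light chain, was at 1251, 1249 and 1213 against 281, 269.6 and 295 CPM (log2 fold change 2.13 ± 0.0524, adjusted p = 7.42e-50), and the peptide transporter Tap1 at 208 ± 6.2 against 45.3 ± 1.18 CPM (2.2). Heavy chains shared by many alleles and copies (H2-Q6, 3.31, and H2-Q7, 2.86) carry the added uncertainty of shared reads. The inducible proteasome subunits, which cut peptides that fit class I molecules, were higher in all 5 genes (median 1.73). Psmb8 was at 191, 190.3 and 189.6 against 34.2, 24.1 and 29.2 CPM (log2 fold change 2.7 ± 0.096, adjusted p = 1.56e-38). Psmb9 was at 49.4 ± 4.54 against 7.04 ± 2.33 CPM (2.82) and Psmb10 at 97.3 ± 1.5 against 29.3 ± 2.93 CPM (1.73). The constitutive subunits were higher too, 14 of 14, but with a median of 0.7, or 0.47 with background subtracted.

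Class II presentation, by which macrophages, dendritic cells and B cells show engulfed antigen to helper T cells, was higher in 9 of 10 genes (median 2.27). The summed level of the list was 11087 to 11268 CPM in anti-B7-H3 and 1924 to 2089.8 CPM in anti-PD1 libraries. Cd74, the invariant chain, was at 4908, 4844 and 4945 against 1089.7, 996 and 1054 CPM (log2 fold change 2.23 ± 0.0556, adjusted p = 2.3e-49). H2-Aa, a class II chain, was at 1491, 1505 and 1507 against 227, 213 and 237 CPM (log2 fold change 2.73 ± 0.0538, adjusted p = 2.9e-56), and H2-Ab1 at 1348, 1295 and 1337 against 223, 199 and 224 CPM (log2 fold change 2.62 ± 0.0567, adjusted p = 1.96e-53). The groups did not overlap for these 3 genes, and the treatments were 4.68- to 6.65-fold apart. Ciita, the master regulator of these genes, differed less (116 ± 5.3 against 40.9 ± 2.8 CPM, log2 fold change 1.51 ± 0.0935, adjusted p = 1.76e-24).

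Genes of the type I interferon response, which defends against viruses, were mixed. Of 23 tested, 14 were higher and 2 lower, with a median of 0.7 (1.22 with background subtracted). Oas1a (19.8 ± 4.67 against 2.93 ± 0.665 CPM, 2.73), Isg15 (15.1 ± 1.92 against 5.42 ± 1.38 CPM, 1.48) and Oasl2 (34.4 ± 3.996 against 12.3 ± 3.33 CPM, 1.48) were higher. Ifit3 was lower (17 ± 1.24 against 24.3 ± 6.73 CPM, log2 fold change -0.5 ± 0.16, adjusted p = 0.00443), a call lost without anti-PD1 replicate 3 (-0.33, adjusted p = 0.099). Its relatives Ifit1 and Ifit2 did not pass (adjusted p = 0.103 and 0.165), though Ifit2 was lower in a fit of genes well above background (-0.33, adjusted p = 0.048).

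Chemokines, the secreted proteins that steer leukocytes, were higher in 17 of 18 tested (median 2.6), and their summed level was 2323 to 2358 CPM in anti-B7-H3 and 232 to 233 CPM in anti-PD1 libraries. Ccl8, which attracts monocytes and T cells, made up more than any other member, at 1255, 1291 and 1281 against 68, 74.2 and 66.5 CPM, 18.3-fold apart (log2 fold change 4.2 ± 0.0623, adjusted p = 9.47e-65). Ccl6 was at 385, 378 and 382 against 29.6, 34.3 and 40.8 CPM (log2 fold change 3.46 ± 0.0777, adjusted p = 1.67e-52). Ccl9, a close relative, was at 108, 107 and 101 against 8.71, 7.31 and 9.33 CPM (log2 fold change 3.64 ± 0.14, adjusted p = 4.86e-37). In each case the lowest anti-B7-H3 library was many times the highest anti-PD1 library. Cxcl9, which interferon gamma induces and which draws activated T cells, was at 30.3, 33.4 and 29.4 against 4.53, 1.46 and 3.5 CPM (log2 fold change 3.27 ± 0.236, adjusted p = 5.6e-21). Cxcl10, of the same receptor, was at 6.77 ± 1.27 against 2.36 ± 1.51 CPM (1.53). The monocyte attractant Ccl2 (37.6 ± 2.63 against 7.09 ± 1.77 CPM, 2.4), the T cell product Ccl5 (17.2 ± 1.58 against 2.72 ± 2.18 CPM, 2.66) and the eosinophil attractant Ccl24 (188 ± 11.3 against 25.5 ± 2.33 CPM, 2.88) were higher. Ccl19, made by stroma of lymphoid tissue, was the 1 chemokine called lower (31 against 49 reads, -1.26), and 12 of the 30 had too few reads to be tested.

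Of 13 chemokine receptors tested, 11 were higher, 10 of them also with background subtracted. Ccr1 (102 ± 7.06 against 18.1 ± 0.945 CPM, 2.5), a receptor of Ccl5, is common on macrophages. Ccr3 (42.4 ± 1.3 against 4.01 ± 1.51 CPM, 3.38) is best known on eosinophils, and Cxcr3 (87 against 9 reads, 2.62) is the receptor of Cxcl9. The lower gene, Ccr10, had 3 reads against 54. In the interleukin-1 family 12 of 14 were higher, with the cytokine Il1b (37.1 ± 4.25 against 8.02 ± 1.57 CPM, 2.19) and its antagonist Il1rn (41.4 ± 7.97 against 5.37 ± 1.68 CPM, 2.93). The alarmin Il33 (37.3 ± 2.68 against 90.4 ± 5.05 CPM, -1.28) and the shared receptor chain Il1rap (60.8 ± 3.51 against 139 ± 8.54 CPM, -1.2) were lower.

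The melanoma label was checked on melanocyte genes. The pigment genes were at or near 0 in the anti-B7-H3 libraries. Tyr had 5 reads over the 3 libraries, Pmel 8, Mlana 5, and Dct and Tyrp1 none. In anti-PD1 libraries Pmel, Dct and Tyrp1 had 44, 18 and 21 reads where 29.3, 24.2 and 25.2 were expected as background. Reads clearly above that were those of Tyr (197) and Slc24a5 (228), both of melanosomes (25 and 23.5 expected). The list gave 9 lower and 2 higher genes of 12, and a median of -3.69, or -3.31 with genes of 0 reads at their bound. With background subtracted 6 of the 12 were tested, with a median of -0.94, and 3 kept the lower and 2 the higher call. Sox10, the neural crest factor that melanoma cells keep when they lose pigment, was well above background in both and lower in anti-B7-H3, at 39, 42.4 and 45.7 against 202, 186 and 177 CPM (log2 fold change -2.16 ± 0.0803, adjusted p = 7.22e-38). Its groups were 4.45-fold apart. Erbb3, a growth factor receptor under Sox10 control (103 ± 6.17 against 349 ± 6.94 CPM, -1.76), was lower too. So were the neural crest genes Cdh19 (53.9 ± 5.79 against 111 ± 7.61 CPM, -1.05) and S100b (21.9 ± 0.227 against 38.7 ± 4.6 CPM, -0.83). Mitf, the melanocyte master regulator, was higher (37.6 ± 2.29 against 24.8 ± 5.39 CPM, 0.61), a call lost with an effective-length offset (0.39, adjusted p = 0.0871).

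Beta-catenin, the effector of Wnt signalling named in the series title, was measured through its gene Ctnnb1 at 550.4, 534 and 554 against 446, 435 and 407 CPM. The groups did not overlap (log2 fold change 0.35 ± 0.0523, adjusted p = 2.28e-08), but the difference failed the test with background subtracted (0.086, adjusted p = 0.11) and with an effective-length offset (0.26, adjusted p = 0.276). Of 15 genes of beta-catenin and its destruction complex, 3 were higher and 8 lower, where 27.4% and 41.6% of all genes were. With background subtracted none kept the higher call (1 at the rate without Olfr93) and all 8 the lower, where 20.1% and 18.7% of all genes did. Apc, the scaffold that holds beta-catenin for destruction, was at 167, 167 and 169.6 against 259, 260.1 and 242 CPM (log2 fold change -0.6 ± 0.0578, adjusted p = 6.31e-15), a call lost with an effective-length offset (-0.44, adjusted p = 0.286). The coactivator Bcl9l was at 91.8, 91.9 and 92.7 against 173, 188 and 187 CPM (log2 fold change -0.98 ± 0.0681, adjusted p = 6.6e-22). Among 14 target genes of the pathway 8 were lower and 2 higher, where 41.6% and 27.4% of all genes were. With background subtracted 4 kept the lower call and 1 the higher, where 18.7% and 20.1% of all genes did. Cd44, of this list, was higher (256 ± 6.48 against 175 ± 5.8 CPM, 0.55), also with background subtracted (0.31, adjusted p = 2.66e-05). The list's median of -0.61 became -0.13 with background subtracted. Ccnd1, the cyclin that opens the cell cycle, was at 157, 154 and 150.4 against 329, 350.3 and 353 CPM (log2 fold change -1.16 ± 0.0555, adjusted p = 4.7e-31), and Myc did not pass (36.9 ± 2.38 against 40.9 ± 5.94 CPM, adjusted p = 0.251), but was lower with background subtracted (-0.33, adjusted p = 0.0325).

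Proliferation genes were lower in anti-B7-H3. Of 32 genes of DNA replication and mitosis, 27 were lower and none higher (median -0.75), where 41.6% of all genes were lower, all 32 were well above background, and 27 kept the call with background subtracted. The summed level was 2350.1 to 2474 CPM in anti-B7-H3 and 4274 to 4332 CPM in anti-PD1 libraries. Mki67, the gene of the proliferation antigen Ki-67, was at 444, 467 and 476 against 960.4, 951 and 921 CPM (log2 fold change -1.03 ± 0.0514, adjusted p = 6.11e-30). Cenpf, a kinetochore protein, was at 131, 141 and 164 against 374, 385 and 405 CPM (log2 fold change -1.42 ± 0.0595, adjusted p = 1.97e-34). Kif11, the motor that separates the spindle poles, was at 74.5, 76.6 and 78.1 against 196, 187 and 213 CPM (log2 fold change -1.38 ± 0.0724, adjusted p = 1.7e-28). Every anti-PD1 library was above every anti-B7-H3 library for these genes, by 2.04- to 2.67-fold on average. Top2a (328 ± 14.7 against 537 ± 15.3 CPM, -0.71) and Ccnb1, a mitotic cyclin (42.8 ± 1.76 against 91.2 ± 5.9 CPM, -1.09), were lower. So were its kinase partner Cdk1 (52.3 ± 1.43 against 94.3 ± 6.24 CPM, -0.85) and the kinase Plk1 (33.3 ± 3.32 against 68.7 ± 5.34 CPM, -1.04). Pcna, the clamp of DNA polymerase, did not pass (101 ± 3.14 against 96.3 ± 8.38 CPM, adjusted p = 0.467). The replication-dependent histones, whose RNA lacks a poly(A) tail and which libraries depleted of ribosomal RNA still hold, gave 15 lower and 4 higher genes among 27 (median -0.29). With background subtracted 15 kept the lower call and 1 the higher (median -0.55). Hist2h3b was the lowest of those called (85.3 ± 7.78 against 161 ± 8.998 CPM, -0.91) and Hist1h1a the highest (61.6 ± 2.9 against 19.99 ± 2.26 CPM, 1.62).

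Fibroblast and collagen genes were higher in 17 of 20 (median 0.9), 16 also with background subtracted. Col1a1 was at 6417, 6410.0 and 6569 against 4616, 4295 and 4546 CPM (log2 fold change 0.53 ± 0.0535, adjusted p = 3.89e-14) and Col3a1 at 8987, 9295 and 9311 against 4942, 4595 and 4829 CPM (log2 fold change 0.94 ± 0.0566, adjusted p = 3.17e-25). The groups do not overlap for either collagen, though after subtraction the difference of Col1a1 was 0.26. Genes of resident fibroblasts differed more, with Dcn at 241, 239 and 226 against 59.9, 67.6 and 52.5 CPM (1.97) and Dpt at 30.4 ± 0.282 against 3.91 ± 1.49 CPM (2.94). Mfap5 was at 80.4 ± 1.99 against 12.6 ± 1.12 CPM (2.67) and Pi16 at 23.6 ± 2.8 against 4.57 ± 1.18 CPM (2.37). The same holds for the matrix crosslinker Lox (364 ± 6.89 against 73.8 ± 7.17 CPM, 2.3) and Postn (3416 ± 38.2 against 1096 ± 24.2 CPM, 1.64). Col5a1 did not pass (1329 ± 9.17 against 1426 ± 55.6 CPM, adjusted p = 0.0716), but was lower with background subtracted (-0.36, adjusted p = 2.12e-08).

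Matrix metalloproteinases were split, 12 higher and 6 lower of 19 with their inhibitors. Mmp12, an elastase of macrophages (596 ± 24.2 against 83.4 ± 7.92 CPM, 2.84), Mmp13 (161 ± 8.02 against 29.6 ± 0.59 CPM, 2.44) and Mmp9 (362 ± 7.22 against 74.5 ± 5.76 CPM, 2.28) were higher. The membrane-bound Mmp15 (12 ± 1.11 against 122 ± 11.7 CPM, -3.34) and Mmp17 (18 ± 2.08 against 75.3 ± 3.08 CPM, -2.06) were lower. In the TGF-beta pathway 8 were higher and 5 lower of 17, and the median of 0.088 changed sign with background subtracted (-0.065), while 5 were higher with an effective-length offset. The ligand Tgfb1 (237 ± 9.36 against 68 ± 4.82 CPM, 1.8) and the induced gene Tgfbi (625 ± 12.3 against 273 ± 9.35 CPM, 1.2) were higher. The ligand Tgfb2 (15.7 ± 1.53 against 25.7 ± 1.76 CPM, -0.71) and the latency protein Ltbp4 (43.9 ± 3.32 against 113 ± 5.21 CPM, -1.36) were lower. Endothelial genes, all 15 well above background, were higher in 6 and lower in 1, where 27.4% of all genes and 36.0% of genes well above background were higher. The higher ones include Pecam1, also found on leukocytes (105 ± 0.528 against 29.8 ± 1.63 CPM, 1.82), Flt1 (132 ± 11.6 against 58.4 ± 2.11 CPM, 1.17) and Eng (141 ± 1.55 against 69 ± 7.37 CPM, 1.03). The more restricted Cdh5 (54.7 ± 5.96 against 28.8 ± 1.99 CPM, 0.92) and Vwf (129 ± 1.43 against 96.7 ± 7.15 CPM, 0.41) lost their calls with an effective-length offset (1.17 and 0.3, adjusted p = 0.282 and 0.0794). Mural cell genes gave 5 higher and 2 lower of 10, and their median of 0.057 changed sign in a fit of genes well above background (-0.044) and without anti-PD1 replicate 1 (-0.016). Over all members that the fits without 1 replicate tested, the mural median was -0.33 to -0.21. Rgs5 of pericytes was higher (21.3 ± 3.65 against 7.17 ± 1.27 CPM, 1.56) and Cspg4, which melanoma cells also carry, lower (411 ± 11.7 against 726 ± 31.2 CPM, -0.82). The adipocyte list held 5 higher and 1 lower genes of 11, led by Fabp4 (19.6 ± 2.46 against 2.29 ± 0.796 CPM, 3.05) and Lpl (67 ± 4.1 against 14.3 ± 4.31 CPM, 2.24), both also made by macrophages.

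Genes of tissues around the tumour stood lower in anti-B7-H3, at levels where background matters most. Of all genes tested 41.6% were called lower, and of the 3864 not well above background 3414 were. Counts of muscle and keratinocyte genes called lower therefore do not by themselves set these lists apart from other genes of few reads. Skeletal muscle genes were lower in 17 of 18 (median -4.61, or -3.87 with the 4 genes of 0 reads at their bound), and 4 of them were well above background, the list holding 8332 reads, where 2833 were expected as background, in anti-PD1. Acta1, the muscle actin, had 1 read against 160, where 17.7 were expected, and Myh4, a fast myosin, 0 against 187, where 90.8 were expected. All 13 keratinocyte genes tested were lower, 7 also with background subtracted and 3 well above background, with 104 reads in anti-B7-H3 and 1154 reads, where 440.0 were expected as background, in anti-PD1. Krt14, the keratin of basal epidermis, had 0 reads against 172 and was at least 87.5-fold lower, though the epidermal partner Krt5 had 0 against 50, where 27.2 were expected. Red cell genes were lower in all 7 tested, 5 also with background subtracted, with the globins Hba-a1 (33.8 ± 5.25 against 96.6 ± 17 CPM, -1.52) and Hbb-bs (28.8 ± 5.2 against 75.8 ± 3.03 CPM, -1.4) well above background in both treatments.

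The 8 largest differences toward anti-PD1 under the naming rule were Duxf3, Flg, Ttll10, Muc6, Rtl1, Krt14, Col4a6 and Olfr93. Muc6, a gastric mucin, was at 127, 144 and 137 CPM in anti-PD1 libraries on 1111 reads, where 137 were expected, and had 2 reads in anti-B7-H3. Flg, of the outer epidermis, and Duxf3, a repeated homeobox gene, had 0 reads in anti-B7-H3 and were at least 144- and 164-fold lower. Flg was at 74.8 to 129 CPM in isotype control and 2.57 to 4.92 CPM in combination libraries, Duxf3 at 145 to 171 and 2.83 to 4.91 CPM. Both moved with the share of satellite-like reads over the 4 groups, while Col4a6 did not (17.3 to 29.6 CPM in isotype control, 107 ± 6.98 CPM in anti-PD1). The part of those reads was not tested. Rtl1 had 1 read against 653, and Col4a6 3 against 874, a ratio of 445 with a 95% counting interval of 152 to 2160.0. Olfr93 is itself one of the olfactory receptor genes that set the background, with 4355 of their 17538 reads in anti-PD1 libraries and 23 of 189 in anti-B7-H3. None of the 8 had more than 23 reads in the 3 anti-B7-H3 libraries together.

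All 34 cytosolic ribosomal protein genes tested were higher in anti-B7-H3, with a median of 0.59 that became 0.32 with background subtracted, when 32 kept the call. Rps3 was at 596, 592 and 559.7 against 305, 280.2 and 304 CPM (log2 fold change 0.98 ± 0.0554, adjusted p = 2.94e-26). Genes of the mitochondrial genome went the other way, all 13 lower (median -1.37), and their share of reads outside the satellite-like genes was 1.5 ± 0.0624% in anti-B7-H3 and 2.57 ± 0.0468% in anti-PD1 libraries. They did not move evenly, from mt-Co1 at 5296 ± 190.4 against 6517 ± 159 CPM (-0.3) to mt-Nd5 at 658 ± 40.5 against 3303 ± 128 CPM (-2.33) and mt-Nd6 at 223 ± 27.2 against 1342 ± 102 CPM (-2.59). The nuclear genes of the same respiratory complexes were higher in 16 of 24 (median 0.54), 14 also with background subtracted, such as Cox5a (62.2 ± 3.48 against 33 ± 2.62 CPM, 0.91).

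The unfolded protein response, which cells mount when secretion strains the endoplasmic reticulum, was higher in 17 of 18 (median 0.9), 14 also with background subtracted. Hspa5, its main chaperone, was at 957, 961 and 943 against 488, 453 and 519 CPM (log2 fold change 0.97 ± 0.0516, adjusted p = 2.45e-28). Xbp1, a factor that plasma cells also need, was at 66.2 ± 9.1 against 20.03 ± 2.92 CPM (1.73), Sdf2l1 at 40.8 ± 0.393 against 9.51 ± 0.835 CPM (2.09). Ddit3, the factor of the death arm, was lower (12.1 ± 1.43 against 18.7 ± 1.05 CPM, -0.63). Among 25 genes of hypoxia and glycolysis, 18 rose in anti-B7-H3 and 3 fell. Their median of 0.28 became 0.031 with background subtracted, when 10 kept the higher call. Slc16a3, which exports lactate, was higher (117 ± 7.88 against 30.7 ± 6.34 CPM, 1.93) and Car9, which hypoxia induces on tumour cells, lower (19.6 ± 1.69 against 72.7 ± 7.75 CPM, -1.89). Immediate early genes split into 11 higher, such as Junb (199.6 ± 12.9 against 95.2 ± 1.83 CPM, 1.07) and Atf3 (12.7 ± 0.617 against 4.55 ± 1.27 CPM, 1.48), and 6 lower, such as Fos (15.9 ± 2.3 against 35.7 ± 0.635 CPM, -1.16) and Egr3 (6.91 ± 0.583 against 18.3 ± 2.64 CPM, -1.4).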

How the data were processed

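RNA of 12 whole tumours was measured, 3 per treatment. The deposited estimated counts of reads per transcript are not scaled, per the file headers; the genome build was GRCm38 and FastQC 0.11.8 was used, per the submitters' processing notes. The sources used here do not name the authors' quantification program or its strand setting, so overlapping, antisense and near-identical genes carry an added uncertainty. The deposited lengths and effective lengths, per the file headers in bases, are a further value for each transcript; 87.3% of lengths are multiples of 3, so they are coding lengths.

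Of 58083 transcripts 57473 matched GENCODE M21. The 610 unmatched took 0.171% to 0.415% of reads in the 6 libraries. Estimated counts were summed over 22195 genes, without the 12 satellite-like genes, and rounded. Library totals were 3593110 to 3937727 reads in anti-B7-H3 and 8099713 to 10527704 in anti-PD1, and genes of few reads carry the larger errors given. Background came from 1189 olfactory receptor genes.

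The fit used edgeR 4.0.16 (quasi-likelihood F test, robust dispersion, TMM normalisation, filterByExpr, 1 mean per group, all 12 libraries) in R 4.3.3, tested on simulated data, with calls at an adjusted p under 0.05. Alternatives, with DESeq2 1.42.0 among them, are described at the end. Where a group had 0 reads, folds are bounds that set the group total to a floor of 3 reads; counting intervals are exact, and both cover counting error only.

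The comparison and the 49 lists were chosen with earlier results of these data known. Genes named are the antibody targets, their ligands and other genes of the series title, the 8 genes with the largest change per direction (mean of at least 10 CPM, well above background, no overlap, called also with background subtracted), and up to 3 called members per list and direction; other genes named, with their values, were chosen after their values were seen. Some genes that the rule gives are not reported here.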

Additional observations from a re-analysis of the deposited data

How the results depend on the processing

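Counts of called genes depended on how background was treated. Genes called lower numbered 6688, and 4264 with the satellite-like genes kept, 3546 with background subtracted, 3503 at the rate of all chemoreceptor genes, 3904 at the olfactory receptor rate without Olfr93, chosen after seeing the data, and 3835 in a fit of genes well above background. At 2-fold or more the 4622 lower genes became 2362 in a fit of the 6 libraries alone, 7857 with no filter on low counts, 1992 with the satellite-like genes kept, 1514, 1481 and 1816 with background subtracted at these 3 rates, and 1412 for genes well above background. Genes called higher numbered 4414, and 2670 with an effective-length offset. The median of all genes was -0.16, -0.038 with the 6 libraries alone, -0.52 with no filter, 0.0081 with background subtracted and -0.3 with the offset. Background in anti-B7-H3 was 0.0559 reads per kb from olfactory receptor genes, 0.0915 from all chemoreceptor genes and 0.0491 without Olfr93, which took that of anti-PD1 from 5.2 to 3.91. At that rate 16 muscle and 9 keratinocyte genes kept the lower call, in place of 14 and 7. Leaving out 1 replicate gave 4187 to 4327 higher and 7250 to 7346 lower genes, 1636 to 1701 and 5450 to 5517 at 2-fold; more genes passed the filter there. The Wald test of DESeq2 called 3946 higher and 6710 lower genes. With the replicate block, 4384 genes were higher and 6619 lower; libraries of the same number correlated at 0.0890, 0.0701 and 0.0993 in their deviations, which does not show pairing, although each correlated best with its own number.

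Directions changed for medians and genes near 0. The median of the TGF-beta list was -0.065, -0.062 and -0.043 with background subtracted at the 3 rates and -0.014 for genes well above background; that of mural cell genes was -0.044 for genes well above background and -0.016 to 0.14 without 1 replicate. The fits without 1 replicate tested further members, and over all of them the median was -0.33 to -0.21 for mural cell, -0.6 to -0.12 for neutrophil (otherwise 0.56) and -0.22 to 0.58 for B cell genes (otherwise 0.32). Gapdh was -0.00312 with the 6 libraries alone, -0.00826 with the satellite-like genes kept, -0.23, -0.23 and -0.18 with background subtracted and -0.056 for genes well above background. Pcna was -0.18, -0.18, -0.13 and -0.027 in the last 4 of these and -0.042 with the offset. Prf1 was -0.000785 with the 6 libraries alone, -0.00547 with the satellite-like genes kept and -0.053 for genes well above background. Without 1 replicate, Prf1 ranged over -0.099 to 0.36 and Ms4a1 -0.23 to 0.39. The causes were not tested. Of 295 genes in these tables, 270 kept direction and side of the threshold in every setting that tested them.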

Other observations

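A set of 34 genes, chosen after its values were seen as those of at least 1000 CPM in anti-PD1 and at least 4-fold lower in anti-B7-H3, summed to 1.26% ± 0.0897 (SD, n = 3) of scaled reads in anti-B7-H3 and 19.95% ± 0.783 in anti-PD1 libraries. Zfp277 was at 746 ± 42.3 CPM in anti-B7-H3 and 20763 ± 1007 CPM in anti-PD1, Sirt5 at 2013 ± 100.4 against 15369 ± 535 CPM, Ocrl at 1295 ± 90.9 against 12880.1 ± 409.9 CPM, Gnat1, a transducin of rod photoreceptors, at 849 ± 76.1 against 9634 ± 658 CPM, Cacna1e, a neuronal calcium channel, at 323 ± 18.5 against 7698 ± 307 CPM, and Rhox8 at 48 ± 9.66 against 7749 ± 867 CPM. On the same scale the 34 genes summed to 63.6% ± 7.89 in isotype control and 3.89% ± 0.0414 in combination libraries. There satellite-like genes took 92.5% and 31.4% of matched reads, against 72.0% in anti-PD1 and 0.145% in anti-B7-H3. The percentages of scaled reads are summed CPM after TMM scaling, not shares of a library's reads. TMM factors were 0.741 to 0.824 in isotype control and 1.11 to 1.12 in combination libraries. That the 34 stand higher in anti-PD1 than in anti-B7-H3 follows from how they were chosen. The 34 include mt-Nd2 (261 ± 20.9 against 1248 ± 78.6 CPM), mt-Nd5 and mt-Nd6. The part of satellite-like reads in these levels was not tested.

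Outside the lists and immunoglobulins, among genes chosen after their values were seen, Cd300ld, a myeloid receptor, was at 31.2 ± 2.47 against 1.21 ± 0.492 CPM (log2 fold change 4.62), Slpi, a protease inhibitor of phagocytes and epithelia, at 22.4 ± 1.93 against 1.24 ± 0.471 CPM (4.15), and Hp, haptoglobin, at 48.1 ± 2.93 against 3.44 ± 0.973 CPM (3.8). Krt8, a simple epithelial keratin, went the other way (3.11 ± 0.471 against 129.9 ± 5.56 CPM, -5.36).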
